A study of Mus musculus with 70 samples.

Results

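Described here are 10 iron storage and transport genes, Fth1, Ftl1, Slc40a1, Tfrc, Slc11a2, Slc11a1, Hmox1, Ncoa4, Steap4 and Lcn2, followed through 70 RNA-seq libraries of mouse forebrain in 17 groups. They were chosen by name as genes of iron handling, with earlier results of these data known. All 10 were found, each in 1 row, among the 43346 genes of the deposited table. Levels are RPKM, reads per kilobase of the gene length listed in the table and per M reads (M, mega). They allow for gene length and depth but not for differences in the makeup of libraries.

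All mice carried Cx3cr1CreERT2-IRES-eYFP/+ and Rpl22HA/+, controls included, and had 100 µg/g tamoxifen on each of 3 days, which switches on an HA-tagged ribosomal protein in Cx3cr1-expressing cells (RiboTag). Ribosome-bound RNA of those cells was pulled down from sonicated forebrain. The Cx3cr1 driver is active in microglia and also in perivascular macrophages and some blood monocytes. The LPS study held pulldowns after saline (n = 4) or LPS (n = 3), microglia sorted as 7AAD- CD11b+ CD45lo/int cells after 20 minutes of collagenase and a Percoll gradient following saline (n = 3) or LPS (n = 3), and bulk forebrain input of pulldowns (n = 4). Intraperitoneal LPS, the endotoxin of bacteria, preceded harvest by 24 hours, as did Poly(I:C), which imitates viral double-stranded RNA and for which separate saline pulldowns were made (n = 3 in each group). Pulldowns of APP/PS1 mice, a transgenic amyloid model, and of controls (n = 5 each), and of mice given rAAV1-TauP301L, a virus carrying mutant human tau, or rAAV1-GFP (n = 5 each), were from animals 9 to 10 months old. The ageing study held pulldowns of females at 3 (n = 5), 12 (n = 5) and 24 months (n = 4) and of males at the same ages (n = 5, 4 and 4). Age is labelled for the APP/PS1, TauP301L and ageing studies and sex only for the last of these. Following the design text, with 3 to 5 animals in a condition, libraries of a group were treated as separate animals. The labels do not say whether an input and a pulldown of the same number share an animal.

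Cells take up iron bound to transferrin through the transferrin receptor, move it out of endosomes and phagosomes with divalent metal transporters, store it in shells of heavy and light ferritin chains, and export it through ferroportin. Haem oxygenase frees iron from haem, and NCOA4 carries ferritin to lysosomes for breakdown. Microglia and other macrophages are known to shift toward holding iron during infection, and in ageing brain they are among the cells in which ferritin accumulates. When iron is low, iron regulatory proteins bind a hairpin in the RNA, the iron-responsive element: in the 5′ UTR this blocks translation, and in the 3′ UTR it protects the RNA from decay.

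A search of GENCODE M21 transcripts of the mouse genome (GRCm38, the same build as mm10) found a match to this hairpin in 4 of the 10 genes. The elements are shown because they are the regulatory sequence that ferritin, ferroportin and the transferrin receptor share. Capitals mark the unpaired C and the 6-base loop. The search asked for C, then 5 stem bases, CAGTG with any base but G after it, then 5 bases pairing with the first 5 (G-T pairs allowed), and for at least 3 further pairs of 5 below the C, on the transcript strand. An element with a mismatch or bulge among those 5 pairs would be missed, so a gene without a match may still hold one. Fth1 (chromosome 19), Ftl1 (chromosome 7) and Slc40a1 (chromosome 1) hold a match in the 5′ UTR. Tfrc (chromosome 16) holds 4 matches in its 3′ UTR.
Fth1: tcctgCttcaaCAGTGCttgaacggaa
Ftl1: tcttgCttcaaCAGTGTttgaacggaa
Slc40a1: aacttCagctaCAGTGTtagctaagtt
Tfrc element 1: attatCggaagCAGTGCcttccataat
Tfrc element 2: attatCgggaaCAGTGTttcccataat
Tfrc element 3: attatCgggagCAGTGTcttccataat
Tfrc element 4: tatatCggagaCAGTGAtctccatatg
Counted from the 5′ end of the printed 27 bases, the Ftl1 element differs from that of Fth1 by C3T and C17T. By the same search 9 of 20899 genes with an annotated 5′ UTR (0.0431%) and 24 of 21685 with a 3′ UTR (0.111%) held a match, which describes the letters and not a tested site.

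Libraries held 20.51 to 47.24 M reads in genes, as recovered from the steps of the RPKM values. RPKM was computed per larger totals, 78.2 M in input 1 with 20.7 M in genes. In APP/PS1 control 1 these were 61.8 M and 31.0 M. Levels of unlike libraries are thus not on an equal scale. The summed level of 12 microglial markers was 23.0 to 27.1 RPKM in input, 287 to 2396 RPKM in pulldowns and 3178 to 4630 RPKM in sorted cells. Saline pulldowns 3 and 4 of the LPS study stood apart, with sums of 711 and 779 RPKM against 1835 and 2149 RPKM in saline pulldowns 1 and 2. Sorted libraries of a group correlated with each other at 0.751 to 0.873 (log2 values over genes), against 0.905 to 0.990 for pulldowns and inputs. Sorted libraries also held neutrophil transcripts, although the gate was meant for microglia and its stated purity was over 98%: 11 neutrophil markers summed to 5393 to 48457 RPKM there, against at most 22.8 RPKM in any pulldown. Results that rest on these libraries are given with those values.

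Per kilobase, ferritin stood far above the other genes of the set in pulldowns. Over the 60 pulldown libraries Fth1 (ENSMUSG00000024661, mm10 chromosome 19, 9982703 to 9985092), the chain that oxidises iron on entry, had a median of 184 RPKM. Ftl1 (ENSMUSG00000050708, chromosome 7, 45457944 to 45459884), the light chain that seeds the iron core, had 128 RPKM. Next came Tfrc, the transferrin receptor, at 3.78 RPKM, Ncoa4, the ferritin cargo receptor, at 2.56 RPKM, Slc11a2, the endosomal iron transporter DMT1, at 2.43 RPKM and Hmox1, the inducible haem oxygenase, at 2.11 RPKM. Slc40a1, ferroportin, followed at 1.77 RPKM and Slc11a1, the phagosomal metal transporter NRAMP1, at 1.45 RPKM. Steap4, a metalloreductase of the plasma membrane and endosomes, and Lcn2, lipocalin 2, which binds bacterial siderophores, were near the lower end at 0.0870 and 0.0645 RPKM. Both ferritin genes have near-identical processed copies, of which Fth-ps2 averaged 11.2 RPKM and Ftl2 0.350 RPKM in the table, so part of their reads may be shared.

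**Figure D1:**
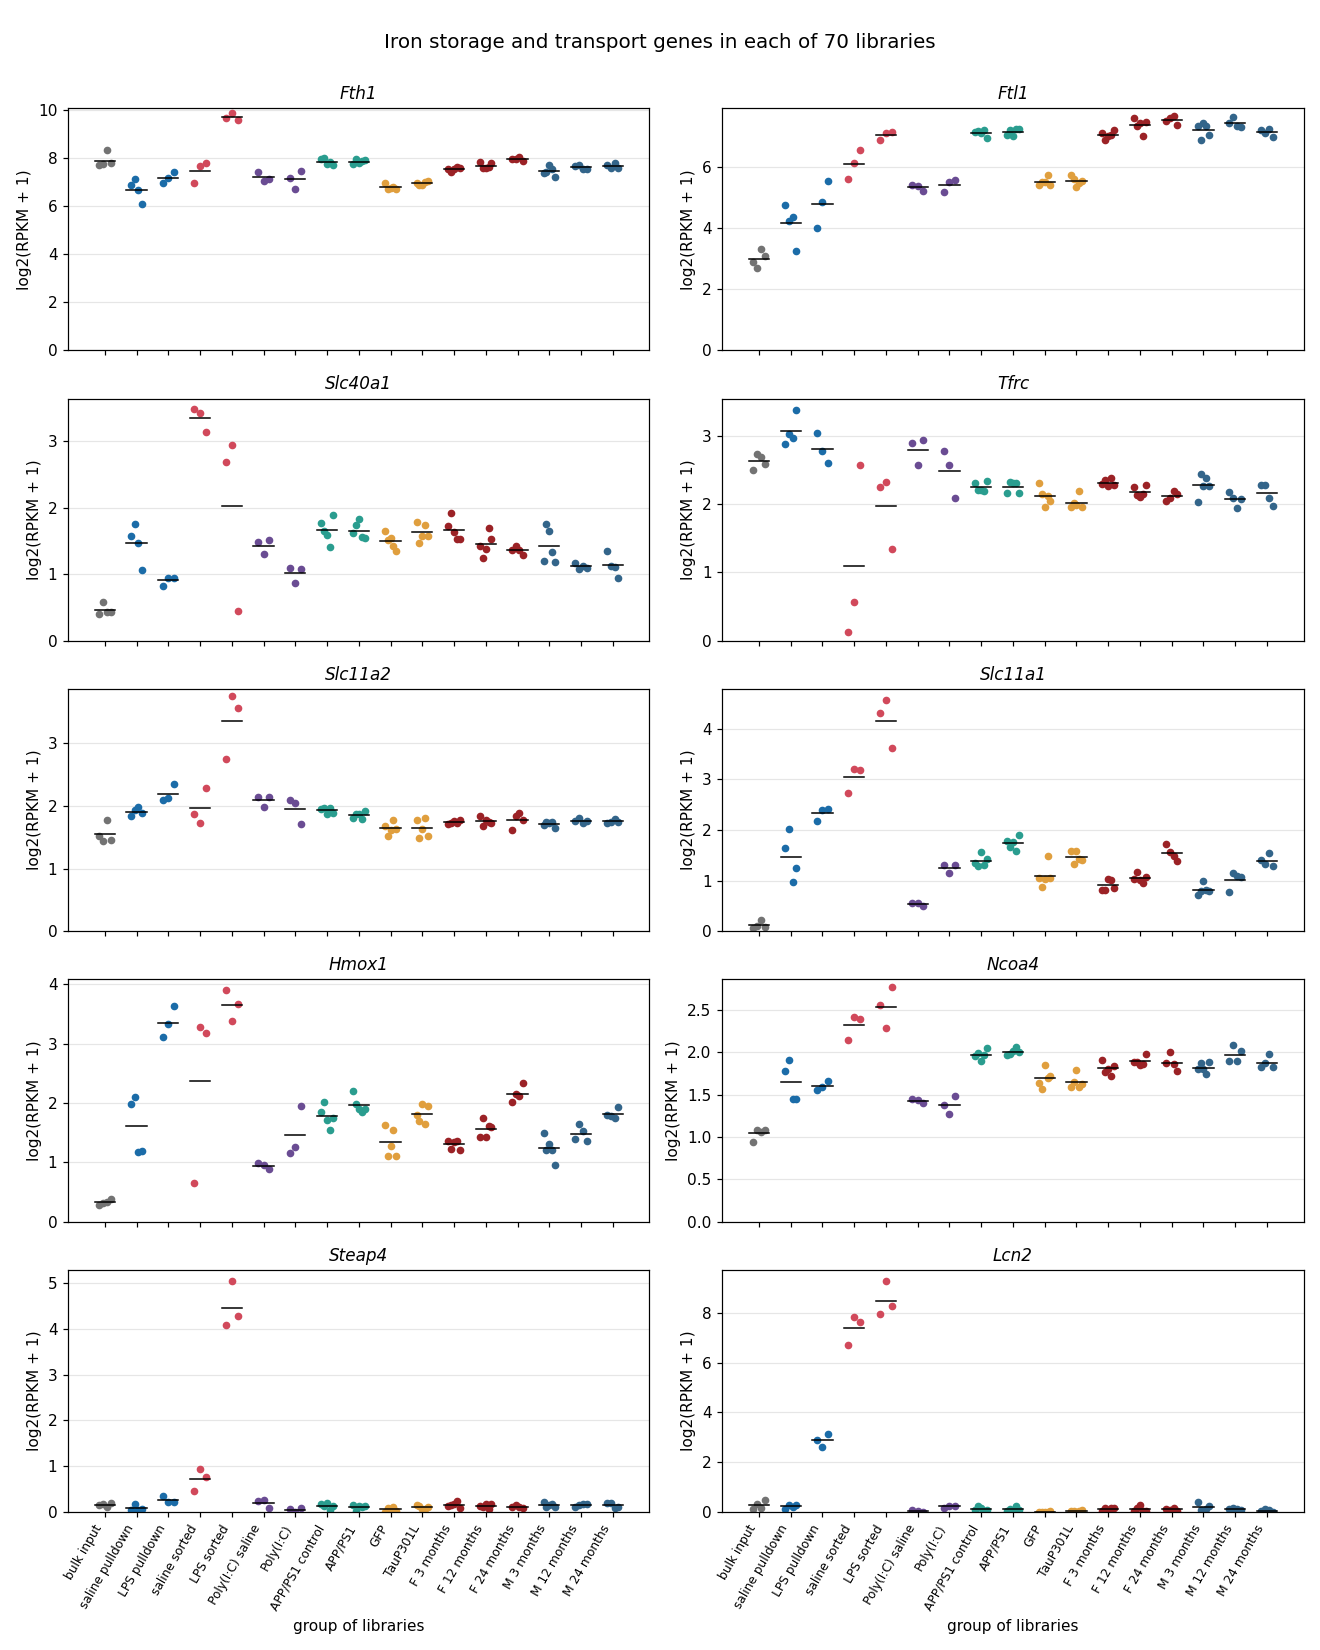
Level of each gene in every library, as log2(RPKM + 1) on the vertical axis, with the 17 groups along the horizontal axis (F, females; M, males). Points are libraries and black lines are group means; colours mark the study and sex. Fth1 and Steap4 are highest in LPS sorted cells, at means of 835 and 22.0 RPKM, and Lcn2 is above 5 RPKM only in sorted cells and LPS pulldowns.

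Ordered by group mean, Fth1 ran from 105 ± 29.9 RPKM (SD, n = 4) in saline pulldowns to 835 ± 91.9 RPKM (n = 3) in LPS sorted cells, and only that top group was separate from its neighbour, 24-month females at 249 ± 12.3 RPKM. Ftl1 ran from 7.06 ± 1.44 RPKM in input to 183 ± 15.9 RPKM in 24-month females. For Fth1, Ftl1, Slc11a2 and Hmox1, libraries of neighbouring groups in such an order overlapped in 15 of 16 pairs, and for Tfrc in all 16. Slc11a1 was the most graded member, with 5 of 16 neighbouring pairs apart, from 0.0865 ± 0.0580 RPKM in input through 4.05 ± 0.462 RPKM in LPS pulldowns to 17.6 ± 5.83 RPKM in LPS sorted cells. The groups come from studies that differ in age, sex, handling and the share of reads that fall in genes, which cannot be told apart in these orders.

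The ratio of light to heavy ferritin RNA also differed between studies. Ftl1 over Fth1 (RPKM over RPKM) was 0.0297 ± 0.00350 in input and 0.170 ± 0.0486 in saline pulldowns of the LPS study. It was 0.407 ± 0.0486 in GFP, 0.596 ± 0.0389 in APP/PS1 control, 0.71 ± 0.0443 in 3-month female and 0.837 ± 0.105 in 3-month male pulldowns. In sorted cells it was 0.380 ± 0.0386 after saline and 0.156 ± 0.0213 after LPS, with no overlap between those groups. Controls of different studies therefore spanned a wider range than any treatment did within its study. The comparisons of levels that follow are within a study. The search for genes of similar pattern, at the end, runs over all 17 groups and includes these differences between studies.

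To ask which of the genes the RiboTag pulldown enriches, saline pulldowns were compared with bulk input, without pairing. Heavy ferritin was depleted in the pulldown while light ferritin, ferroportin and haem oxygenase were enriched. Fth1 was 115, 138, 99.5 and 66.4 RPKM in the pulldowns and 207, 211, 317 and 221 RPKM in the inputs. All pulldowns were below all inputs, a log2 fold change of -1.21 ± 0.25 (SE, adjusted p = 0.00196 by limma on log2(RPKM + 1), Benjamini-Hochberg over the 12780 genes tested; adjusted p values below come from the same test over the genes tested in each comparison, 12780 to 14431, unless voom or another setting is named). In bulk samples such as these, fewer cells of a type and less RNA per cell cannot be told apart. Heavy ferritin is known to be abundant in other brain cells as well, oligodendrocytes and neurons among them. Their marker sums were lower in pulldowns, at 67.5 to 96.0 RPKM against 149 to 220 RPKM for oligodendrocytes and 134 to 204 RPKM against 416 to 487 RPKM for neurons, and their part in the result was not tested.

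Ftl1 went the other way, at 25.8, 17.8, 19.7 and 8.52 RPKM in pulldowns against 6.45, 5.46, 8.83 and 7.48 RPKM in inputs. The lowest pulldown, 1 of those with few microglial transcripts, lay below the highest input, and the log2 fold change was 1.16 ± 0.29 (adjusted p = 0.0059). Slc40a1 (ENSMUSG00000025993, chromosome 1, 45908068 to 45926523) was 1.98, 2.38, 1.78 and 1.10 RPKM in pulldowns and 0.317, 0.492, 0.355 and 0.343 RPKM in inputs. Hmox1 (ENSMUSG00000005413, chromosome 8, 75093591 to 75100596) was 2.94, 3.28, 1.25 and 1.29 RPKM in pulldowns and 0.213 to 0.304 RPKM in inputs. Both genes were higher in every pulldown than in any input, by 1.01 ± 0.14 (adjusted p = 0.000231) and 1.28 ± 0.21 (adjusted p = 0.000608). Ncoa4 (ENSMUSG00000056234, chromosome 14, 32159865 to 32179855) rose by 0.60 ± 0.12 (adjusted p = 0.00168). Slc11a1 (ENSMUSG00000026177, chromosome 1, 74375195 to 74386062) was below the limit for testing, a mean of 1 RPKM over the libraries compared, yet its pulldowns at 0.965 to 3.07 RPKM did not overlap its inputs at 0.0380 to 0.170 RPKM.

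Of the 7 members that passed the limit, 6 were called higher and 1 lower. Of all tested genes 56.8% were called higher and 10.5% lower, 67.3% in all. The median log2 fold change was 0.60 for those members and 0.41 for all tested genes. Slc11a2 (ENSMUSG00000023030, chromosome 15, 100387898 to 100425072) at 0.36 ± 0.10 and Tfrc (ENSMUSG00000022797, chromosome 16, 32608920 to 32632794) at 0.44 ± 0.12 lay close to that median of all genes. With median-of-ratios scaling, which moved the all-gene median to 0.02, they stood at -0.03 and -0.04 and were not called, so no direction is drawn for either. Steap4 and Lcn2 overlapped between pulldown and input. Of 39 other iron and haem genes in the table, 20 were tested. Beside the 56.8% and 10.5% of all tested genes, 13 of these were called higher and 1 lower, with a median of 0.56. The smallest p values belonged to Slc25a28, mitoferrin 2 (1.02 ± 0.11), Ireb2, iron regulatory protein 2 (0.91 ± 0.09), and Cp, the copper ferroxidase ceruloplasmin (0.61 ± 0.08).

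The isolation methods were compared under saline, to see how pulldown and sorting differ for the same nominal cells. Sorted cells held far more Lcn2, and more Ftl1, Slc40a1 and Slc11a1, whereas Tfrc was higher in pulldowns. Lcn2 (ENSMUSG00000026822, chromosome 2, 32384633 to 32388252) was 0.10, 0.225, 0.143 and 0.220 RPKM in pulldowns and 105, 229 and 198 RPKM in sorted cells, a log2 fold change of -7.18 ± 0.34 (adjusted p = 1.39e-08). Besides its role in microglia, Lcn2 is a classic granule protein of neutrophils. The neutrophil marker sum was 5393 to 18081 RPKM in those sorted libraries and 4.97 to 22.8 RPKM in the pulldowns, all 9 tested neutrophil markers were lower in pulldowns, and their part in the result was not tested. Ltf and Hp, the iron binder lactoferrin and the haemoglobin binder haptoglobin, which neutrophils also store, moved the same way by -6.67 ± 0.46 (adjusted p = 2.14e-07) and -3.97 ± 0.64 (adjusted p = 0.000278).

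Slc40a1 was 10.2, 9.81 and 7.83 RPKM in sorted cells, above every pulldown, a log2 fold change of -1.89 ± 0.48 for pulldown against sorted (adjusted p = 0.00735). Slc11a1 at 5.63, 8.20 and 8.17 RPKM in sorted cells and 2.12, 3.07, 0.965 and 1.37 RPKM in pulldowns changed by -1.57 ± 0.30 (adjusted p = 0.00100), and Ftl1 by -1.93 ± 0.41 (adjusted p = 0.00234). The microglial marker sum was 3350 to 3596 RPKM in sorted cells against 711 to 2149 RPKM in pulldowns. Per 1000 RPKM of that sum Slc40a1 was 2.68 ± 0.399 RPKM in sorted cells and 1.52 ± 0.666 RPKM in pulldowns, Slc11a1 2.11 ± 0.372 and 1.42 ± 0.249 RPKM and Ftl1 19.8 ± 6.18 and 15.2 ± 8.61 RPKM, all with overlap. On this scale the means of Fth1 and Ncoa4 turned direction, at 52.2 ± 14.1 RPKM in sorted cells and 88.0 ± 36.2 RPKM in pulldowns and at 1.15 ± 0.116 and 1.81 ± 0.590 RPKM. Bulk input held 9573 ± 1420 RPKM of Fth1 and 42.7 ± 3.87 RPKM of Ncoa4 on it. The part of transcripts from other cells in that turn was not tested. Monocyte markers summed to 79.0 to 189 RPKM in sorted cells against 3.78 to 3.99 RPKM in pulldowns, with 4 of 5 called lower in pulldowns and 1 higher, and the part of these and of the neutrophil transcripts in the Slc11a1, Slc40a1 and Ftl1 differences was not tested. Tfrc was 6.39, 7.19, 6.82 and 9.43 RPKM in pulldowns but 0.0935, 0.485 and 4.95 RPKM in sorted cells. The groups did not overlap (1.98 ± 0.48, adjusted p = 0.00603), though the sorted libraries spread widely. Tfrc is also known from neurons, endothelium and red cell precursors. Neuron markers summed to 134 to 204 RPKM in pulldowns against 0.790 to 1.69 RPKM in sorted cells, and erythroid markers to 16.1 to 135 RPKM against 0.0322 to 1.38 RPKM, and their part was not tested.

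All 10 members passed the limit in the joint fit of these 4 groups, Steap4 only through LPS sorted cells and Lcn2 through sorted cells, so their calls between those groups follow in part from the limit itself. Between the methods 1 was called higher in pulldowns and 7 lower. Of all tested genes 27.8% were called higher and 12.2% lower, 39.9% in all. The median was -0.78 for the members and 0.25 for all tested genes. Fth1 (-0.79 ± 0.28, adjusted p = 0.0382), Ncoa4 (-0.68 ± 0.19, adjusted p = 0.0149) and Steap4 (ENSMUSG00000012428, chromosome 5, 7960472 to 7982213; -0.64 ± 0.23, adjusted p = 0.0417) were also called lower, the calls of Fth1 and Steap4 being lost without any of several single libraries of either group. Hmox1 was 0.573, 8.69 and 8.07 RPKM in sorted cells and was not called (-0.76 ± 0.54, adjusted p = 0.304), but without saline sorted library 1, the low one, it was (-1.62, adjusted p = 0.00169). Slc11a2 overlapped (-0.06 ± 0.25). Without saline pulldowns 3 and 4, Fth1, Ncoa4, Steap4, Slc40a1 and Tfrc were no longer called, leaving 3 of the 8, and without saline pulldown 3 alone 5 were left. Other iron and haem genes were called higher in 3 and lower in 5 of 24 cases, beside the 27.8% and 12.2% of all tested genes.

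LPS was compared with saline within each method. In pulldowns Lcn2 rose, and it was the only member called. Saline pulldowns had 20, 47, 45 and 60 reads of Lcn2, and LPS pulldowns stood at 6.42, 5.11 and 7.68 RPKM. Every LPS pulldown was thus far above every saline pulldown, with a log2 fold change of 2.65 ± 0.34 (adjusted p = 0.00506). Lcn2 is a target of NF-kB known to rise in several brain cell types after LPS, endothelium and astrocytes included. Endothelial markers summed to 12.2 to 12.6 RPKM after saline and 11.3 to 13.6 RPKM after LPS, and neutrophil markers to 4.97 to 22.8 RPKM and 7.85 to 9.55 RPKM, none of either list called. Perivascular macrophage markers, which the Cx3cr1 driver also reaches, summed to 38.2, 46.2, 13.7 and 14.7 RPKM after saline and 42.1, 56.0 and 51.5 RPKM after LPS, with 2 of 5 tested called higher (median log2 fold change 1.28), and 1 of 12 microglial markers was called higher. Their part in the Lcn2 change was not tested. Without LPS pulldown 4 the Lcn2 change was 2.52 (adjusted p = 0.0575), without saline pulldowns 3 and 4 it was 2.66 (adjusted p = 0.0899), and limma voom on recovered reads gave 5.06 (adjusted p = 0.0683).

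Haem oxygenase was higher in all LPS pulldowns without reaching the threshold in the joint fit. Hmox1 was 7.61, 9.03 and 11.4 RPKM after LPS against 2.94, 3.28, 1.25 and 1.29 RPKM after saline, with no overlap, a log2 fold change of 1.75 ± 0.54 (adjusted p = 0.179). The joint fit shares its spread with the sorted libraries, and a fit of the pulldowns alone gave adjusted p = 0.00652. In that fit 12.3% of all tested genes were called, against 1.36% in the joint fit. The 2 saline pulldowns with low microglial sums, which also had the low perivascular macrophage sums of 13.7 and 14.7 RPKM, were those with low Hmox1, and the part of perivascular macrophage transcripts in the Hmox1 values was not tested. Per 1000 RPKM of the microglial sum Hmox1 was 1.63 ± 0.0942 RPKM after saline and 4.56 ± 0.901 RPKM after LPS, again with no overlap.

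Ferroportin was lower in every LPS pulldown, at 0.778, 0.926 and 0.929 RPKM, than in any saline pulldown, the lowest of which was 1.10 RPKM. The log2 fold change of -0.56 ± 0.48 was not called (adjusted p = 1.00). Per 1000 RPKM of the microglial sum Slc40a1 was 1.52 ± 0.666 RPKM after saline and 0.428 ± 0.0357 RPKM after LPS, and those values did not overlap either. Slc11a1 at 3.52, 4.25 and 4.37 RPKM lay above every saline pulldown (0.86 ± 0.30, adjusted p = 0.25, and 0.0441 in the fit of pulldowns alone). Slc11a2 was 3.27 to 4.13 RPKM after LPS and at most 2.95 RPKM after saline (0.28 ± 0.25, not called). Steap4, near the floor, was 0.162 to 0.282 RPKM after LPS and at most 0.132 RPKM after saline (0.18 ± 0.23, not called). Fth1 (0.50 ± 0.28), Ftl1 (0.64 ± 0.41), Tfrc (-0.26 ± 0.48) and Ncoa4 (-0.04 ± 0.19) overlapped between the groups. In all 1 of the 10 was called, where 1.36% of all tested genes were, and none of the 24 other iron and haem genes or 11 NRF2 pathway genes tested was called by limma. The median log2 fold change was 0.39 for the members and 0.12 for all tested genes.

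**Figure D2:**
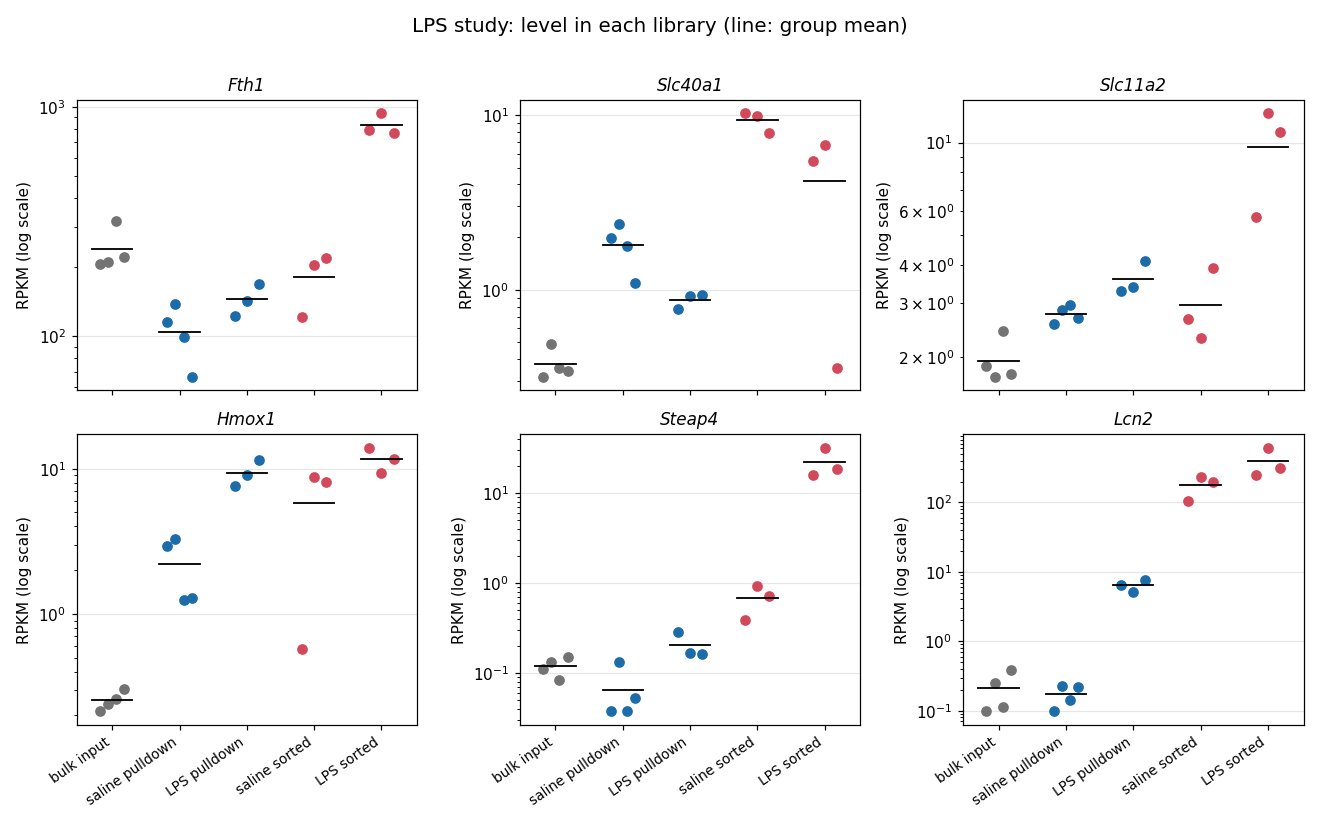
Level in RPKM, on a log scale, of 6 genes in each library of the LPS study, by group. Points are libraries and lines are group means. Lcn2 separates LPS from saline pulldowns (5.11 to 7.68 against at most 0.225 RPKM), and the top Steap4 and Fth1 values belong to LPS sorted cells.

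In sorted cells LPS moved other members. Fth1 rose from 122, 204 and 220 RPKM to 797, 940 and 768 RPKM, a log2 fold change of 2.23 ± 0.29 (adjusted p = 0.00141). Steap4 rose from 0.383, 0.922 and 0.709 RPKM to 15.9, 31.8 and 18.3 RPKM, by 3.74 ± 0.24 (adjusted p = 2.03e-05). For both genes all LPS libraries were well above all saline libraries. Slc11a2 went from 2.66, 2.31 and 3.90 RPKM to 5.72, 12.5 and 10.8 RPKM (1.39 ± 0.27, adjusted p = 0.00928) and Slc11a1 from 5.63, 8.20 and 8.17 RPKM to 18.9, 22.7 and 11.2 RPKM (1.12 ± 0.32, adjusted p = 0.0491). Slc11a1 was not called with any other pseudocount, filter, scaling or fit tried (adjusted p 0.0575 to 0.344). It was also not called without any of 5 libraries, LPS sorted library 3 being the exception. Slc11a2 missed the call in a fit of the sorted groups alone (adjusted p = 0.296), where 0.627% of all tested genes were called.

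Lcn2 in sorted cells was 246, 618 and 310 RPKM after LPS against 105, 229 and 198 RPKM after saline (1.10 ± 0.36, adjusted p = 0.0819, and 0.0410 without LPS sorted library 1), above without overlap. Slc40a1 was 5.45, 6.73 and 0.358 RPKM after LPS, below the saline libraries but with LPS sorted library 3 far under the others (-1.33 ± 0.51, adjusted p = 0.132, and 0.0430 with median-of-ratios scaling or 0.0490 without LPS sorted library 2). Hmox1 after LPS, at 14.0, 9.39 and 11.7 RPKM, exceeded saline libraries that included 1 at 0.573 RPKM (1.28 ± 0.58, adjusted p = 0.205). Tfrc overlapped (0.88 ± 0.52, adjusted p = 0.336), but without saline sorted library 3, its high one, it was called at 1.63 (adjusted p = 0.0126). Ncoa4 overlapped as well, at 3.88 to 5.81 RPKM after LPS and 3.42 to 4.35 RPKM after saline, and Ftl1 was above without overlap, at 115, 135 and 139 RPKM against 47.0, 68.9 and 91.2 RPKM (0.94 ± 0.44, adjusted p = 0.216). The count of members called was 4 higher and 0 lower, where 8.82% of all tested genes were called, and the median was 1.11 for the members against 0.09. That count includes Steap4, which passed the limit for testing only through LPS sorted cells, so its call follows in part from the limit itself. Neutrophil markers summed to 5393 to 18081 RPKM after saline and 12300 to 48457 RPKM after LPS, with 2 of 9 called higher. Monocyte markers summed to 79.0 to 189 RPKM and 86.2 to 288 RPKM, with 1 of 5 called higher and 1 lower. Of 12 microglial markers 2 were called lower, and of 5 tested perivascular macrophage markers 1 was called higher. The part of these cells in the changes was not tested. Slc39a14, the zinc and iron importer ZIP14, was the only called gene of the other iron list (2.59 ± 0.26, adjusted p = 0.000271), and Gclm, a subunit of the enzyme that starts glutathione synthesis (0.99 ± 0.24, adjusted p = 0.0255), Keap1, the repressor of NRF2 (0.92 ± 0.23, adjusted p = 0.0308), and Txnrd1, thioredoxin reductase (1.73 ± 0.46, adjusted p = 0.0405), were the 3 of 4 called NRF2 pathway genes with the smallest p.

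The LPS effects of the methods were then compared directly. On the log2(RPKM + 1) scale the Steap4 effect was smaller in pulldowns, whose LPS libraries stood at 0.282, 0.168 and 0.162 RPKM. Steap4 passed the limit for testing only through LPS sorted cells. The difference of the log2 effects was -3.56 ± 0.33 (adjusted p = 0.00316), though limma voom on recovered reads gave -3.07 with adjusted p = 0.252. It was the 1 member called among 10, where 0.259% of all tested genes were called. The Fth1 effect was smaller in pulldowns by -1.73 ± 0.40 (adjusted p = 0.131), which does not show a difference. The Lcn2 effect was larger in pulldowns by 1.55 ± 0.49 (adjusted p = 0.321), but with a pseudocount of 0.1 RPKM the difference was 3.49 and was called (adjusted p = 0.0214). For Hmox1 the difference was 0.47 with a 95% interval of -1.27 to 2.21, and for Slc11a1 -0.26 with an interval of -1.21 to 0.69.

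The Poly(I:C) pulldowns were set against the saline pulldowns of that study. None of the 7 tested members was called by limma, although 6.5% of all tested genes were. Of the 7, 2, Slc40a1 and Hmox1, had an unadjusted p under 0.05. Limma voom on recovered reads called 1, Slc40a1, and 6.86% of all tested genes. Slc40a1 was 1.14, 0.828 and 1.11 RPKM after Poly(I:C) and 1.79, 1.46 and 1.86 RPKM after saline. All treated libraries were lower, by -0.42 ± 0.11 (adjusted p = 0.0811), and voom gave -0.81 (adjusted p = 0.00927). Hmox1 was 1.23, 1.38 and 2.86 RPKM after Poly(I:C), above 0.993, 0.928 and 0.843 RPKM after saline, with the highest treated library pulling the mean (0.51 ± 0.20, adjusted p = 0.251).

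Slc11a1 averaged under 1 RPKM in this study and was left out of that test. Its treated libraries at 1.49, 1.22 and 1.47 RPKM were nonetheless all above its saline libraries at 0.467, 0.469 and 0.405 RPKM, and with no limit on low values it was called (0.72 ± 0.09, adjusted p = 0.0168). The microglial marker sum rose alongside, from 287 to 302 RPKM after saline to 547 to 763 RPKM after Poly(I:C), with 7 of 12 markers called higher. Monocyte markers summed to 2.65 to 2.89 RPKM after saline and 5.46 to 8.71 RPKM after Poly(I:C), with 1 of 2 tested called higher. Erythroid markers summed to 7.72 to 13.5 RPKM and 1.71 to 8.18 RPKM, with 0 of 4 called (median -0.98), and 1 of 3 endothelial markers was called lower. Their part in these values was not tested. Per 1000 RPKM of that sum Slc11a1 went from 1.52 ± 0.128 to 2.25 ± 0.341 RPKM without overlap, Slc40a1 from 5.79 ± 0.636 to 1.66 ± 0.30 RPKM, and Hmox1 from 3.13 ± 0.225 to 2.81 ± 0.832 RPKM with overlap. Ferritin did not separate, with Fth1 at -0.09 ± 0.23 and Ftl1 at 0.07 ± 0.15. Slc11a2, Tfrc and Ncoa4 overlapped between the groups as well. Among other genes Pcbp1, an iron chaperone that loads ferritin (0.68 ± 0.13, adjusted p = 0.0200), and, of the NRF2 pathway, Nfe2l2, NRF2 itself (0.84 ± 0.13, adjusted p = 0.0059), Prdx1, a peroxiredoxin (1.28 ± 0.21, adjusted p = 0.00921), and Cat, catalase (0.74 ± 0.17, adjusted p = 0.0401), were called higher.

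In the amyloid model the phagosomal transporter rose, by little, and no other member was called, while in the tau model no member was called. Slc11a1 was 2.43, 2.16, 2.37, 1.99 and 2.73 RPKM in APP/PS1 mice and 1.54, 1.45, 1.97, 1.46 and 1.69 RPKM in their controls. Every APP/PS1 library lay above every control, and the change of 0.35 ± 0.07 was called (adjusted p = 0.0436). The call was close to the threshold: with no limit on low values it had adjusted p = 0.0970, and leaving out any of 8 of the 10 libraries gave adjusted p from 0.0574 to 0.101. Microglial markers summed to 994 to 1219 RPKM in APP/PS1 and 931 to 1138 RPKM in controls, none of 12 called. Per 1000 RPKM of that sum Slc11a1 was 2.05 ± 0.138 against 1.55 ± 0.147 RPKM, with no overlap.

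Of the 8 members tested for APP/PS1, 1 was called, where 1.31% of all tested genes were called, and the median was 0.02 against -0.03. Fth1 at 229 ± 13.4 RPKM against 230 ± 19.9 RPKM differed by 0.00 ± 0.07, with a 95% interval of -0.15 to 0.14. Ftl1 had an interval of -0.10 to 0.17 and Slc40a1 of -0.20 to 0.19. Slc11a2, Tfrc and Ncoa4 overlapped between the groups and were not called. Hmox1 was 2.58 to 3.60 RPKM in APP/PS1 and 1.93 to 3.06 RPKM in controls (0.19 ± 0.09, adjusted p = 0.304). No gene of the other iron list or of the NRF2 pathway list was called by limma.

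For TauP301L against GFP none of 8 tested members was called by limma, where 1.25% of all tested genes were called. Of these members 3 had an unadjusted p under 0.05. Limma voom on recovered reads called those 3, Hmox1, Slc11a1 and Fth1, as higher, and 5.34% of all tested genes in either direction. Hmox1 was 2.48, 2.23, 2.96, 2.13 and 2.86 RPKM with TauP301L and 2.10, 1.16, 1.43, 1.93 and 1.16 RPKM with GFP. The groups were apart by a narrow margin (0.48 ± 0.11, adjusted p = 0.0699, and 0.00443 by voom). Slc11a1 was 2.01, 1.53, 2.02, 1.69 and 1.66 RPKM against 1.07, 0.823, 1.04, 1.79 and 1.09 RPKM, where only GFP library 5 reached the TauP301L range. Its log2 fold change was 0.38 ± 0.10 (adjusted p = 0.101), and without GFP library 5 it was 0.47 (adjusted p = 0.0117); Hmox1 was then also called, at 0.53 (adjusted p = 0.0469). That GFP library also had the highest microglial sum of its group, 902 RPKM against 606 to 758 RPKM in the others. Per 1000 RPKM of that sum Hmox1 was 3.01 ± 0.457 RPKM with TauP301L and 2.15 ± 0.660 RPKM with GFP. Slc11a1 was 2.12 ± 0.271 and 1.56 ± 0.264 RPKM, both genes with overlap. Called higher were 1 of 12 microglial and 1 of 6 astrocyte markers, and 1 of 7 neuron markers was called lower. Their part in these values was not tested.

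Fth1 was 123 ± 6.48 RPKM with TauP301L and 110 ± 7.62 RPKM with GFP (0.17 ± 0.06, adjusted p = 0.17, and 0.0253 by voom), and its libraries overlapped. Ftl1, Slc40a1, Slc11a2, Tfrc and Ncoa4 differed by -0.09 to 0.14, none of them called under any setting tried. Trf, transferrin (0.41 ± 0.07, adjusted p = 0.0226), and Prdx1 (0.40 ± 0.05, adjusted p = 0.00854) were the called genes of the other lists. The amyloid effect minus the tau effect was called for 0 of 8 members by limma, where 0.847% of all tested genes were called, with 0 also under an unadjusted p of 0.05 and 0 by voom. For Slc11a1 that difference was -0.03, with a 95% interval of -0.30 to 0.24, and for Hmox1 -0.29, with an interval of -0.61 to 0.03.

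**Figure D3:**
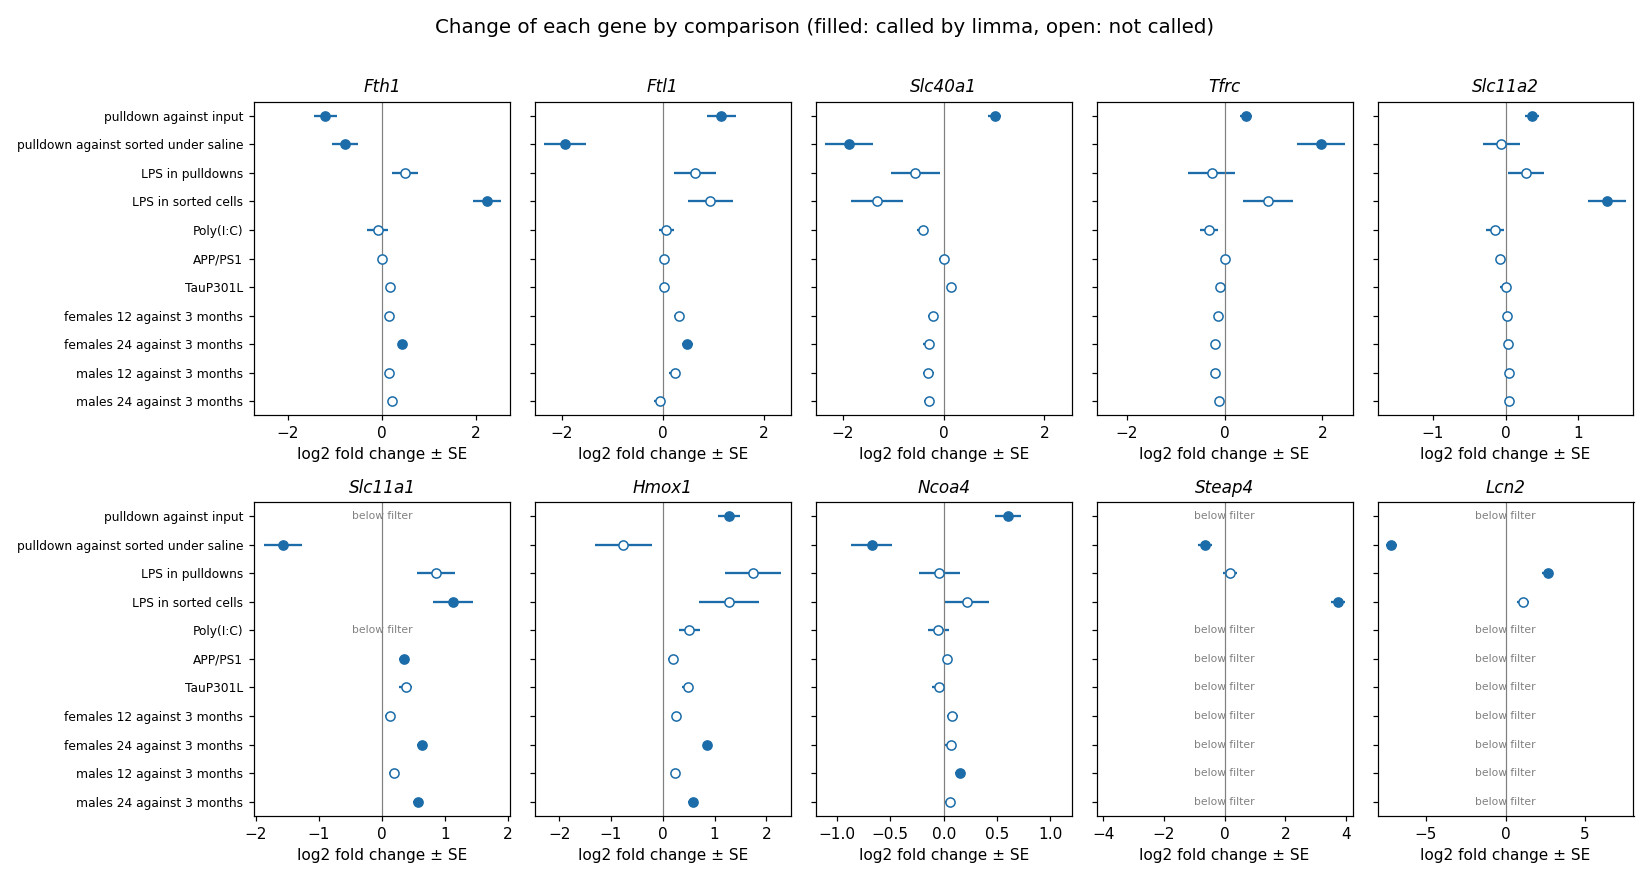
Log2 fold change (horizontal axis, log2(RPKM + 1) scale) with its standard error for each gene in 11 comparisons; filled points passed an adjusted p of 0.05 in limma. Hmox1 and Slc11a1 are right of zero in each treatment, disease and age comparison in which they were tested, called or not, and Steap4 is called for LPS only in sorted cells.

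Ageing gave the clearest changes within pulldowns. In females, haem oxygenase, the phagosomal transporter and both ferritin chains rose from 3 to 24 months. Hmox1 was 1.58, 1.35, 1.54, 1.56 and 1.31 RPKM at 3 months and 3.04, 3.45, 3.32 and 4.07 RPKM at 24 months, a log2 fold change of 0.86 ± 0.09 (adjusted p = 1.01e-07). Slc11a1 was 0.757, 0.762, 1.06, 1.03 and 0.819 RPKM at 3 months and 2.32, 1.97, 1.79 and 1.63 RPKM at 24 months (0.63 ± 0.08, adjusted p = 3.21e-06). All 24-month libraries exceeded all 3-month libraries for both genes.

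Fth1 was 183, 172, 184, 194 and 188 RPKM at 3 months and 248, 247, 266 and 236 RPKM at 24 months (0.43 ± 0.08, adjusted p = 0.000302). Ftl1 was 135, 116, 127, 130 and 146 RPKM at 3 months and 177, 191, 201 and 165 RPKM at 24 months (0.48 ± 0.11, adjusted p = 0.00261). Neither ferritin gene overlapped between those ages. Slc40a1 and Tfrc lay lower in every 24-month library, at 1.46 to 1.69 RPKM against 1.88 to 2.77 RPKM and at 3.15 to 3.55 RPKM against 3.79 to 4.21 RPKM. Their changes of -0.30 ± 0.11 (adjusted p = 0.0505) and -0.19 ± 0.07 (adjusted p = 0.0525) just missed the threshold, and Slc40a1 passed it without 3-month library 4 or 5 (adjusted p = 0.0427 and 0.0413). With median-of-ratios scaling both were called (adjusted p = 0.0239 and 0.0165), which made 4 members higher and 2 lower in place of 4 and 0.

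Of 8 tested members in females at 24 months 4 were called higher and 0 lower, where 20.1% of all tested genes were called. The median was 0.25 for the members and 0.05 for all genes. At 12 months 0 of 8 were called by limma, where 2.94% of all tested genes were called. An unadjusted p under 0.05 was found for 3, and limma voom called 1, Ftl1, and 3.68% of all tested genes. Hmox1 at 12 months, 1.68 to 2.35 RPKM, was already above every 3-month female library (0.26 ± 0.08, adjusted p = 0.074), and Ftl1 stood at 0.32 ± 0.10 (adjusted p = 0.0865, and 0.0191 without 12-month library 4).

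**Figure D4:**
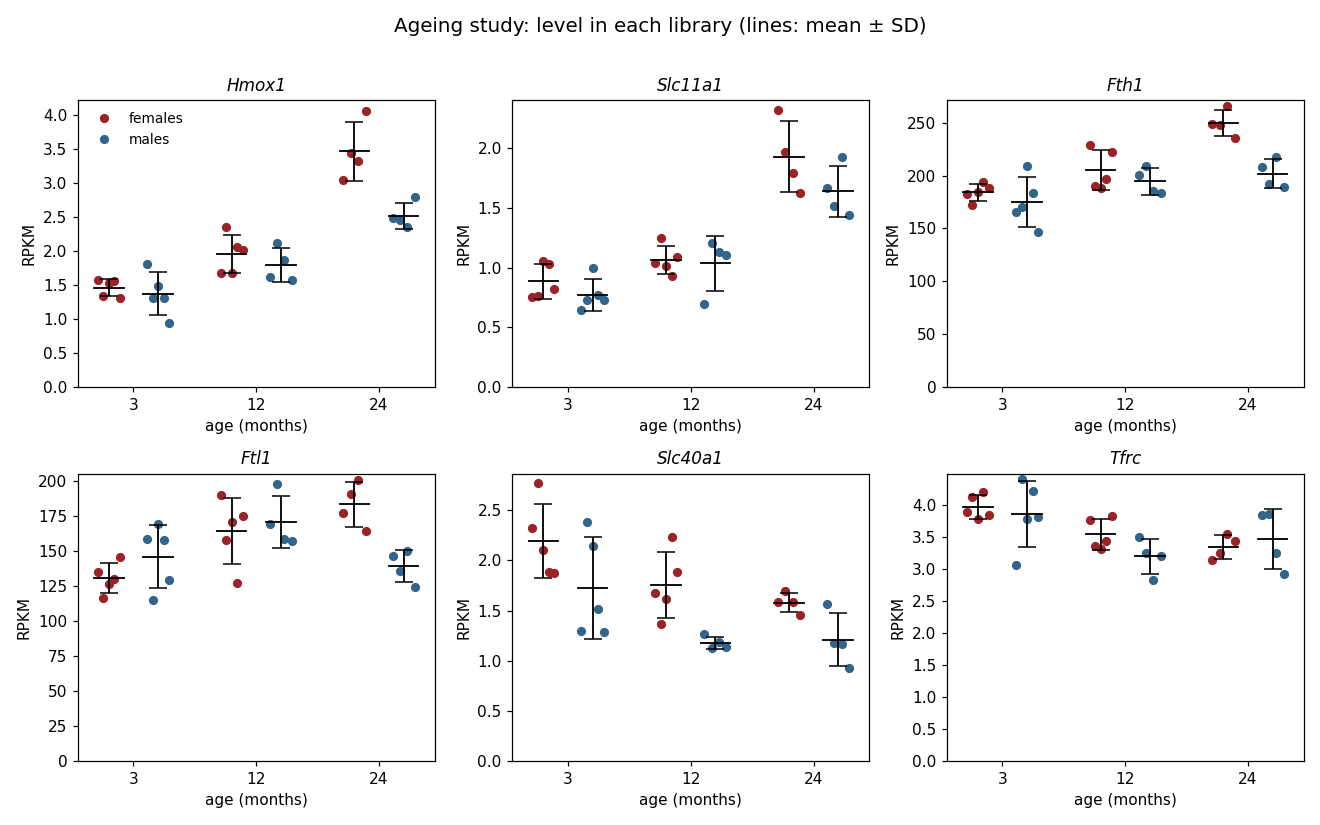
Level in RPKM of 6 genes by age in months, in females and males of the ageing study. Points are libraries and bars are mean ± SD, on axes that start at 0. Hmox1 and Slc11a1 at 24 months lie above all 3-month libraries in both sexes, Ftl1 does so in females, and Slc40a1 and Tfrc means are lower at 24 than at 3 months.

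In males Hmox1 and Slc11a1 rose again from 3 to 24 months. Hmox1 went from 1.81, 1.31, 1.49, 1.31 and 0.944 RPKM to 2.49, 2.45, 2.35 and 2.80 RPKM (0.58 ± 0.09, adjusted p = 1.92e-05). Slc11a1 went from 0.645, 0.726, 0.996, 0.767 and 0.725 RPKM to 1.67, 1.51, 1.92 and 1.44 RPKM (0.57 ± 0.08, adjusted p = 8.93e-06). Neither overlapped between the ages. Fth1 at 175 ± 23.4 and 202 ± 13.6 RPKM differed by 0.21 ± 0.08 (adjusted p = 0.0558), and Ftl1 at 146 ± 22.7 and 139 ± 11.5 RPKM by -0.06 ± 0.11 (95% interval -0.29 to 0.17). Slc40a1 was -0.29 ± 0.11 (adjusted p = 0.0525, and 0.0282 with median-of-ratios scaling).

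Thus 2 of 8 tested members were called higher and 0 lower in males at 24 months, or 2 and 1 with that scaling, where 23.4% of all tested genes were called. The members' share was 2 of 8, near the background, and their median 0.05 was near the all-gene 0.04. Leaving out male 3-month library 1 raised the count to 4 of 8, with Slc40a1 at -0.35 and Tfrc at -0.18 then called lower, and leaving out 3-month library 3 gave Fth1 a call at 0.28 (adjusted p = 0.00718). Slc40a1 was likewise called lower without 3-month library 5 or 24-month library 1 (adjusted p = 0.0249 and 0.0244). At 12 months 1 of 8, Ncoa4, was called (0.15 ± 0.05, adjusted p = 0.0481), where 13.9% of all tested genes were called. With median-of-ratios scaling Ncoa4 lost that call (adjusted p = 0.301) while Slc40a1 and Tfrc were called lower, giving 0 higher and 2 lower in place of 1 and 0. Leaving out any of 8 of the 9 libraries, all but 12-month library 1, also ended the Ncoa4 call (adjusted p 0.0519 to 0.196).

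Microglial transcripts rose with age in the same libraries. The marker sum went from 522 to 672 RPKM at 3 months to 880 to 955 RPKM at 24 months in females, with 6 of 12 markers called higher, and from 492 to 654 RPKM to 811 to 959 RPKM in males, with 11 of 12 called. C1qb, a complement chain among those markers, went from 169 to 327 RPKM in females. Values scaled by the sum therefore carry the change of C1qb as well. Per 1000 RPKM of the sum Hmox1 was 2.42 ± 0.362 RPKM at 3 and 3.81 ± 0.579 RPKM at 24 months in females, with no overlap, and 2.42 ± 0.315 and 2.88 ± 0.317 RPKM in males, with overlap. Slc11a1 was 1.45 ± 0.149 and 2.10 ± 0.274 RPKM in females, with no overlap, and 1.39 ± 0.246 and 1.85 ± 0.151 RPKM in males, with overlap. On this scale ferritin was not higher in old females, with Fth1 at 304 ± 28.2 and 273 ± 17.3 RPKM and Ftl1 at 216 ± 28.2 and 201 ± 17.6 RPKM. Slc40a1 went from 3.65 ± 0.872 to 1.73 ± 0.0609 RPKM. The scale does not separate microglial transcripts from those of other cells. In bulk input of the LPS study Fth1 was 9573 ± 1420 RPKM and Ftl1 282 ± 37.2 RPKM on it. The scaled values thus do not show whether ferritin RNA changed within microglia. Oligodendrocyte markers also rose in females, from 120 to 142 RPKM to 173 to 199 RPKM with 7 of 8 called, and erythroid markers fell in 4 of 5 tested cases. In males 2 of 8 oligodendrocyte markers were called higher and 1 lower, 1 of 5 erythroid markers higher and 4 of 7 neuron markers lower. Perivascular macrophage markers were called higher in 2 of 5 cases in females, with sums of 10.9 to 15.1 RPKM at 3 and 14.2 to 21.4 RPKM at 24 months, and in 3 of 5 in males, with sums of 9.65 to 13.4 RPKM and 15.2 to 17.3 RPKM. Astrocyte markers were called higher in 2 of 6 cases in females and 1 of 6 in males. Their part in the ferritin, haem oxygenase and Slc11a1 changes was not tested.

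Of the other iron and haem genes, transferrin, a biliverdin reductase and an iron chaperone rose with age in both sexes. At 24 months 9 of 22 were called higher and 0 lower in females (median 0.17), and 8 higher and 1 lower in males (median 0.11), where 16.7% of all tested genes were called higher in females and 17.2% in males. Trf, which oligodendrocytes are known to make in the brain, rose by 0.74 ± 0.07 (adjusted p = 4.32e-08) in females and 0.84 ± 0.07 (adjusted p = 4.45e-09) in males. Blvrb, a biliverdin reductase, rose by 0.67 ± 0.10 (adjusted p = 3.2e-05) and 0.58 ± 0.10 (adjusted p = 0.000143), and Pcbp1 by 0.44 ± 0.08 (adjusted p = 0.000183) and 0.36 ± 0.08 (adjusted p = 0.00116).

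NRF2 pathway genes were called higher in 6 and lower in 0 of 11 in each sex at 24 months, beside those same shares of all tested genes. Prdx1 rose by 0.94 ± 0.08 (adjusted p = 1.54e-09) in females and 0.59 ± 0.08 (adjusted p = 2.8e-06) in males, and Nfe2l2 by 0.78 ± 0.08 (adjusted p = 1.24e-07) and 0.77 ± 0.08 (adjusted p = 1.04e-07). The third by p was Cat in females (0.48 ± 0.07, adjusted p = 1.37e-05) and Gsr, glutathione reductase, in males (0.28 ± 0.04, adjusted p = 1.7e-05). At 12 months the counts for the other iron list were 1 of 22 in females, with Fech, the last enzyme of haem synthesis, at 0.19 ± 0.05 (adjusted p = 0.0365), and 4 of 22 in males, where 2.56% and 12.4% of all tested genes were called higher.

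Sex was compared over the 3 ages. Slc40a1 was higher in females, with means of group means of 1.86 RPKM against 1.40 RPKM in males (0.27 ± 0.06, adjusted p = 0.0182). Its libraries were 1.88 to 2.77 RPKM in females and 1.28 to 2.39 RPKM in males at 3 months, 1.36 to 2.23 and 1.12 to 1.26 RPKM at 12 months, and 1.46 to 1.69 and 0.922 to 1.56 RPKM at 24 months. The sexes were thus apart at 12 months and overlapped at the other ages. It was the 1 of 8 tested members called, where 2.99% of all tested genes were called. Hmox1 at 0.16 ± 0.05 (adjusted p = 0.0822) passed the threshold without male 3-month library 1 (adjusted p = 0.0328), and Fth1 at 0.15 ± 0.05 (adjusted p = 0.0705) without male 3-month library 3 (0.0176) or with median-of-ratios scaling (0.0192). Of the other iron list only Ireb2 was called, also higher in females (0.18 ± 0.05, adjusted p = 0.0317).

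Whether ageing acted differently in females and males was tested as the difference of the 24 against 3 month effects. It was called for 0 of 8 members by limma, where 0.0916% of all tested genes were called. An unadjusted p under 0.05 was found for 2, and limma voom called 1, Ftl1, and 0.824% of all tested genes. For Ftl1 the female effect exceeded the male effect by 0.54 ± 0.16 (adjusted p = 0.142, and 0.0227 by voom). For Hmox1 the difference was 0.28 ± 0.12 (adjusted p = 0.354). The called rise of both ferritin chains in females and its absence from the calls in males was therefore not shown to be a difference between the sexes by the main test.

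For the 8 members averaging at least 1 RPKM in pulldowns, which leaves out Steap4 and Lcn2, the genes of most similar pattern were found by the Pearson correlation of mean log2(RPKM + 1) over the 17 groups, among 4442 genes of at least 5 RPKM on average. The points share study and isolation method, and the values describe these groups. Slc11a1 was closest to C3ar1, a complement receptor (0.985), and Irf5, an interferon regulatory factor (0.983), and Hmox1 to Slamf9 (0.976) and Ctsl, the lysosomal protease cathepsin L (0.973). Ftl1 was closest to Smcr8 (0.972) and Tob2 (0.967), Slc40a1 to Tm6sf1 (0.902) and Mbnl1 (0.890), and Fth1, with the lowest top value, to Mark2 (0.856) and Slc2a1, a glucose transporter (0.847). Ncoa4 was closest to Arid1a (0.964) and Kdm2a (0.959), Tfrc to Dzip3 (0.924) and Psip1 (0.898), and Slc11a2 to Snord100 (0.967) and Clk3 (0.923).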

How the data were processed

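The deposited table held RPKM values of 43346 genes in 70 libraries. Per the submitters' processing notes the authors used CASAVA, TopHat2 and featureCounts with mm10; their versions and the strand setting of the counting are not given in the sources used here, so antisense or overlapping genes cannot be separated. Values were whole multiples of the worth of 1 read (100.0% within 0.01 read in the lowest library), which gave 20.51 to 47.24 M reads (M, mega) in genes per library. Intervals of log2 fold changes are at 95% from limma's moderated distribution and cover the spread between libraries only.

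The 10 members and all gene lists were chosen with earlier results of these data known. Their counts beside the share of all genes are therefore descriptive. Members are not all named in every comparison. Other lists are given for some comparisons only, as counts and up to 3 called genes with the smallest p. The 15 comparisons came from 7 fits with limma 3.58.1 (R 4.3.3, trended variance) on log2(RPKM + 1), over genes averaging 1 RPKM or more in a fit, with Benjamini-Hochberg adjustment and a threshold of 0.05. Fold changes on this scale understate those of low genes. Fits were tested on simulated data. Alternatives were a pseudocount of 0.1, no filter, median-of-ratios scaling, a replicate block, limma voom on recovered reads, only the groups compared, leaving out each library and, chosen after seeing the data, leaving out saline pulldowns 3 and 4. Tables and figures used matplotlib 3.10.9, scipy 1.17.1, numpy 2.4.6 and pandas 2.3.3 under Python 3.11.15.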

Additional observations from a re-analysis of the deposited data

Results flagged for a closer look

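In 6 of 120 groups of 4 or 5 libraries a library lay far from the rest of its group, and chance flags about 1 in 20 groups. Fth1 was 316.8 RPKM in input 3, against 207 to 221 RPKM in the other inputs. Slc11a1 was 1.788 RPKM in GFP library 5, against 0.823 to 1.09 RPKM in the other GFP libraries, and Tfrc was 3.551 RPKM in TauP301L library 4, against 2.87 to 3.06 RPKM. Steap4 was 0.1322 RPKM in saline pulldown 2, against 0.0372 to 0.0520 RPKM. Ncoa4 was 0.9189 RPKM in input 1, against 1.09 to 1.12 RPKM, and 2.944 RPKM in 12-month female library 5, against 2.60 to 2.69 RPKM. The LPS effect on Steap4 differed between pulldowns and sorted cells by -3.559 on the log2(RPKM + 1) scale, in the limma test of the difference itself. Limma voom on recovered reads did not call it (adjusted p = 0.252). Steap4 passed the limit for testing only through LPS sorted cells.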

How the results depend on the processing

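Of 30 gene results called, 17 kept their call in every setting tried. Among them were Hmox1 and Slc11a1 at 24 months in both sexes and Fth1 and Steap4 after LPS in sorted cells. Steap4 passed the limit for testing only through LPS sorted cells. Of 96 results not called, 71 stayed so in every setting. Scaling by median of ratios moved the median of all genes by -0.39 (pulldown against input), -0.14 (against sorted), -0.24 (LPS pulldowns) and -0.10 (difference of LPS effects). Slc11a2 and Tfrc against input turned to -0.034 and -0.043 with that scaling and to -0.0049 and -0.010 with limma voom; the cause was not tested. Counts of called members that changed by over 1.5 times or to or from 0 are given first. A pseudocount of 0.1 gave 2 for the difference of LPS effects and 2 for males at 12 months. No filter gave 1 for Poly(I:C), where Slc11a1 entered the test, and 0 for APP/PS1 and for males at 12 months. Scaling gave 1 for TauP301L, 2 for males at 12 months and 2 for sex. Voom gave 0 for LPS pulldowns and for the difference of LPS effects, 1 for Poly(I:C), females at 12 months and the sex difference in ageing, 2 for males at 12 months and for sex, 3 for TauP301L and 4 for males at 24 months. Fits of only the groups compared gave 3 for LPS pulldowns, 2 for LPS sorted cells and 0 for males at 12 months. Without saline pulldowns 3 and 4, chosen after seeing the data, counts were 0 for LPS pulldowns and 3 against sorted. Smaller shifts were 5 against input with scaling or voom, 8 with no filter and 6 without saline pulldowns 3 and 4, 3 for LPS sorted cells with a pseudocount of 0.1, no filter, the replicate block or voom, 3 for males at 24 months with that pseudocount or scaling, 6 for females at 24 months with scaling, voom or only the groups compared, and 7 (no filter) or 6 (only the groups compared) against sorted. The causes of these shifts were not tested.

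Leaving out each library in turn gave 5 to 9 called members against sorted, 0 to 1 for LPS pulldowns, 0 to 1 for Poly(I:C), 0 to 1 for APP/PS1, 0 to 2 for TauP301L, 0 to 1 for females at 12 months (1 without female 12-month library 4), 0 to 3 for males at 12 months, 2 to 4 for males at 24 months and 1 to 2 for sex. Same-numbered libraries did not deviate together (correlations of -0.55 to 0.13), which does not show whether they share an animal. The numbers were not taken as pairs in the main fits. Against input, Fth1, Ftl1, Slc40a1, Hmox1 and Ncoa4 kept their calls in every setting, the replicate block included. With the replicate block the count was 5 against sorted, 0 for APP/PS1 and 0 for males at 12 months. Depth limits Steap4 and Lcn2 in pulldowns: libraries held as few as 1 read of Steap4 (GFP, Poly(I:C)) and 0 reads of Lcn2 (GFP, TauP301L, 3-month females, 24-month males).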
